A study of Homo sapiens with 4 samples.

Results

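EHF and SPDEF, a pair of ETS transcription factor genes of epithelial cells, and ERBB3, a receptor gene of the same cells, were followed across 4 human prostate cancer cell cultures. The genes were taken by symbol, and each had 1 named probe, so the group held 3 of 14006 named genes and 3 of 37934 probes. They had been picked after their levels on these arrays were known, so their own levels and differences are given below as a description, with no test. Total RNA of each culture was measured on 1 Affymetrix whole-transcript array, and each value is an intensity on a linear scale. With 1 array per culture no value has a replicate error, and the number of arrays limits the precision.

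The PC3 pair came from the androgen-independent line PC3, which was started from a bone metastasis. Its cells had been isolated with IIH6C4, an antibody to the laminin-binding glycan that alpha-dystroglycan carries. The isolates were PC3-L, labelled low for the glycan with high motility and invasion, and PC3-H, labelled high for the glycan with low motility and invasion. The LNCaP pair was labelled as coming from LNCaP, a line from a lymph node metastasis. LNCaP-AI is described as LNCaP cells kept in charcoal-stripped serum, a serum low in steroids; it is labelled androgen-independent and low for the glycan with high motility and invasion. LNCaP itself is labelled androgen-dependent, high for the glycan, with low motility and invasion. All 4 cultures were grown in RPMI1640 with antibiotics. The free-text descriptions give the glycan label of the PC3 arrays the other way round, and that of LNCaP-AI also mentions medium conditioned by perineural cells. For LNCaP they give a moderate glycan level and androgen independence, against its other labels.

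ETS factors share a DNA-binding domain that reads a short GGA core. EHF and SPDEF belong to the branch of the family whose members are found mainly in epithelia. EHF, also called ESE3, is made in prostate epithelium, where its loss has been tied to dedifferentiation. SPDEF, the prostate-derived ETS factor, is known for luminal and secretory differentiation and differs from most of the family in preferring a GGAT core. ERBB3 is a receptor for neuregulins with little kinase activity of its own, which signals mainly through its partner ERBB2.

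Promoter sequence is shown for the ETS members because they were low on the same arrays, and a GGA core is what their own family reads. RefSeq on GRCh38.p14 held entries for EHF and SPDEF, with 2 start sites for EHF, and none was used for ERBB3. Each line gives the 250 bases before a start site, 5′ to 3′ on the gene's strand, with capitals marking GGAA or its reverse complement TTCC. The EHF windows lie on the plus strand at chr11:34624007-34624256 and chr11:34632316-34632565, and the SPDEF window on the minus strand at chr6:34556330-34556579.
EHF, first start site: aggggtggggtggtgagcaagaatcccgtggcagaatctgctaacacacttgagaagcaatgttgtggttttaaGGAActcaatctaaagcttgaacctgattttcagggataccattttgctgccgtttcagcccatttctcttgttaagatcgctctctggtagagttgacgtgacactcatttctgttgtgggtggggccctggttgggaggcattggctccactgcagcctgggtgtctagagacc
EHF, second start site: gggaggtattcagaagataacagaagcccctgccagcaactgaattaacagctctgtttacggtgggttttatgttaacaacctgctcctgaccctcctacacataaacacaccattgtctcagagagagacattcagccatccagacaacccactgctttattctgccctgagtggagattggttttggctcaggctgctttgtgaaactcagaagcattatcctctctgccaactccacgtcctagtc
SPDEF: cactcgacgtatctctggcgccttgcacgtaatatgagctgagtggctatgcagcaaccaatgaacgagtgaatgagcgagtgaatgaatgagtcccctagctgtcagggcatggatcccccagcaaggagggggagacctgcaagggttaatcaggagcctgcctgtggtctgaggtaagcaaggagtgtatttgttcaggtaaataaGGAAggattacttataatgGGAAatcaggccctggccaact
GGAA or TTCC occurred 1 time and 0 times in the EHF windows and 2 times in the SPDEF window. Of 35116 promoter windows of this length 92.7% held at least 1 copy, with a median of 3. GGAT or its reverse complement ATCC occurred 2 times in each EHF window and 3 times in the SPDEF window, where a GGAT and an ATCC overlap within ggatcc; 70.7% of windows held it. CAGGTG or CACCTG, an E-box form bound by the ZEB and SNAI repressors, occurred 0 times in all 3 windows and in 17.5% of all windows. These matches describe letters in a short window and are not measured binding sites.

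The line labels were checked first. The LNCaP marker KLK2, a kallikrein gene, was 49.9 on the LNCaP-AI-labelled array, against 323 on LNCaP. It was 43.7 on PC3-L and 47.3 on PC3-H. The kallikrein gene KLK3 was 61.2 on the LNCaP-AI-labelled array against 1781 on LNCaP. Both are androgen-induced, and LNCaP-AI is described as kept in serum low in steroids. The part of steroid level in KLK2 and KLK3 was not tested. FOLH1, another LNCaP marker, was 24.2 on the LNCaP-AI-labelled array against 944 on LNCaP, with 23.0 on PC3-L and 23.4 on PC3-H. Summed over 4 measured LNCaP markers, the intensity was 175 on the LNCaP-AI-labelled array, against 3454 on LNCaP, with 175 on PC3-L and 240 on PC3-H. Over 6 PC3 markers the sums were 3592 on the LNCaP-AI-labelled array, against 242 on LNCaP, with 4089 on PC3-L and 1606 on PC3-H. Of these PC3 markers CXCL8 alone stayed far below PC3-L. It was 46.9 on the LNCaP-AI-labelled array, above the 22.3 on LNCaP but below the 497 on PC3-L and 302 on PC3-H. Only 2.78% of genes differed by 2-fold or more between the LNCaP-AI-labelled array and PC3-L, against 10.6% between it and LNCaP. At these markers other than CXCL8 that array has values near those of PC3-L, against its line label, so it is called the LNCaP-AI-labelled array. Every result of the LNCaP pair rests on it. Medians of the 4 arrays lay between 39.8 and 41.2, and genes entered a count when the brighter value of a pair reached the 40th percentile of its array, an intensity of 33.6 to 34.8. In these bulk samples, fewer cells of a type and less RNA per cell cannot be told apart.

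All 3 genes were high on LNCaP, intermediate on PC3-H, and low on the LNCaP-AI-labelled array and on PC3-L. EHF had an intensity of 33.7 in PC3-L against 202 in PC3-H, and of 36.5 on the LNCaP-AI-labelled array against 902 on LNCaP. Both low values of EHF lay at 1.00 and 1.06 times the 40th percentile of their arrays, so its folds depend on the background level of the arrays. SPDEF was 56.5 in PC3-L against 306 in PC3-H, and 76.6 on the LNCaP-AI-labelled array against 566 on LNCaP. Its low values stood higher over that level, at 1.68 and 2.22 times it. ERBB3 was 38.1 in PC3-L against 80.8 in PC3-H, and 40.6 on the LNCaP-AI-labelled array against 188 on LNCaP. Its low values were near the 40th percentile as for EHF, at 1.13 and 1.18 times it. All 3 genes reached the 40th percentile on all 4 arrays, so none entered the counts through its high array alone. Within each gene, the single values of PC3-H and LNCaP lay above those of PC3-L and the LNCaP-AI-labelled array. The last 2 were close to each other. With 1 value per array this is an order without a spread. The full order, from LNCaP down to PC3-L, was found in 5.55% of 10762 genes.

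**Figure D1:**
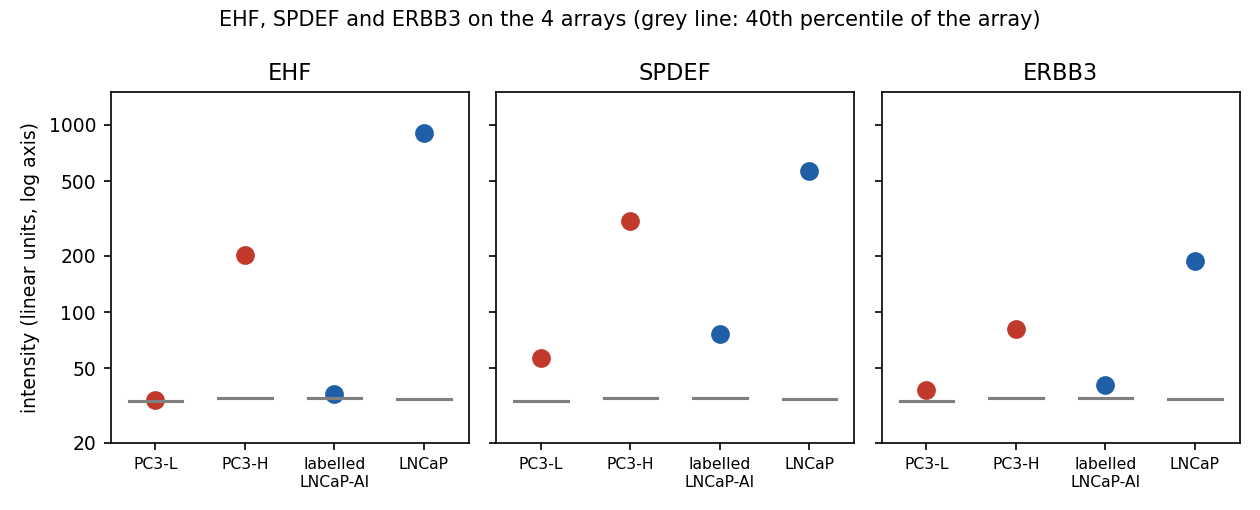
Intensity of EHF, SPDEF and ERBB3 (log axis, 1 point per array, no error bars because each culture had 1 array), with a grey line at the 40th percentile of each array. PC3 arrays are red and LNCaP-labelled arrays blue; in each panel LNCaP is highest, PC3-H second, and the PC3-L and LNCaP-AI points lie lowest, for EHF at 33.7 and 36.5.

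In the PC3 pair all 3 members were past 2-fold lower on PC3-L, where 3.76% of 11135 genes were. Folds are on the scale of log2(intensity + 1). EHF was 5.86-fold lower (log2 difference −2.55), the 47th lowest difference of the pair, and SPDEF was 5.33-fold lower (−2.41), the 57th. ERBB3 was 2.09-fold lower (−1.06), in place 356, and came within 2-fold with a pseudocount of 16 (−0.84). The differences of the 2 ETS factors were closer to each other than to that of ERBB3, but their gap depended on the background level: with the 5th percentile of each array subtracted, EHF had −3.91 and SPDEF −3.02. Under the free-text descriptions the names of both PC3 arrays would change places and these signs would turn.

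In the LNCaP pair all 3 members were again past 2-fold lower, on the LNCaP-AI-labelled array, where 5.13% of 11136 genes were. EHF was 24.1-fold lower there (log2 difference −4.59), the 7th lowest difference of these 11136 genes. SPDEF was 7.31-fold lower (−2.87, place 48) and ERBB3 4.53-fold lower (−2.18, place 95). The difference of EHF was larger in size than that of SPDEF, as it also was in the PC3 pair. In the PC3 pair this order was not kept with a pseudocount of 16 (−2.13 for EHF, −2.15 for SPDEF). With PC3-L in the place of the LNCaP-AI-labelled array, LNCaP was 26.1-fold higher for EHF, 9.86-fold for SPDEF and 4.82-fold for ERBB3.

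The remaining contrasts show how the arrays stood to each other. EHF was 4.45-fold higher on LNCaP than on PC3-H, ERBB3 2.31-fold and SPDEF 1.85-fold, so 2 of 3 members were past 2-fold, where 5.46% of genes were higher. Between the LNCaP-AI-labelled array and PC3-L the members differed by 1.08-fold for EHF, 1.35-fold for SPDEF and 1.06-fold for ERBB3, with the LNCaP-AI-labelled array higher each time; 0 of 3 were past 2-fold, against 2.78% of genes in either direction. From high to low, each member ran LNCaP, PC3-H, LNCaP-AI-labelled array, PC3-L. This order was found in 5.55% of 10762 genes that passed the filter in both pairs. A stricter pattern, with LNCaP and PC3-H both at least 2-fold above both other arrays, held for EHF (5.41-fold at its narrowest) and SPDEF (3.95-fold), while ERBB3 reached 1.96-fold; 0.901% of genes showed it.

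The 2 pairs share no array, but only 2.78% of genes were past 2-fold between PC3-L and the LNCaP-AI-labelled array. Their overlap is therefore not independent agreement. Across both pairs, 114 genes were past 2-fold lower in each, or 1.06% of genes tested. They made up 27.2% of the genes lower on PC3-L and 19.97% of those lower on the LNCaP-AI-labelled array. EHF, SPDEF and ERBB3 were all among them.

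**Figure D2:**
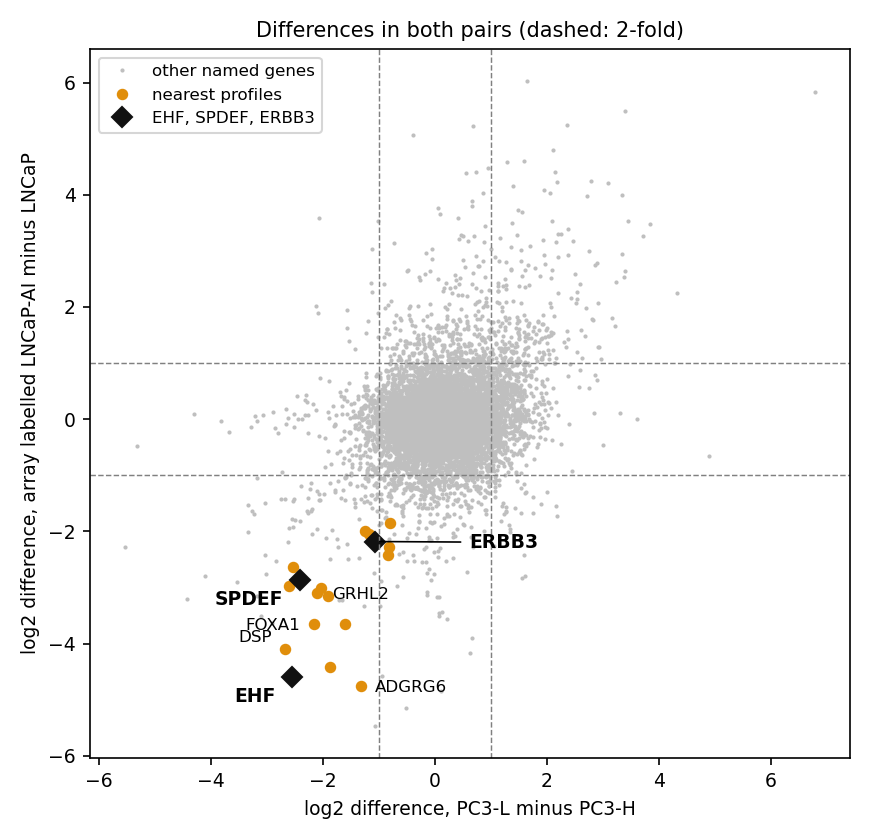
Log2 difference of PC3-L minus PC3-H (x axis) against that of the LNCaP-AI-labelled array minus LNCaP (y axis), 1 point per named gene, with dashed lines at 2-fold. The 3 members (black diamonds) lie in the lower left, EHF at −2.55 and −4.59, SPDEF at −2.41 and −2.87, ERBB3 at −1.06 and −2.18, among the genes with the nearest profiles (orange).

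Of 28 ETS genes 23 had a named probe, and among these EHF and SPDEF were the only ones past 2-fold lower in both pairs. Without them, 4 of 18 ETS genes past the filter were higher on PC3-L and 1 lower (median log2 difference 0.05, against −0.02 over all genes, of which 8.58% were higher and 3.76% lower). On the LNCaP-AI-labelled array 7 of 19 were higher and 1 lower (median 0.09, against 0.00 over all genes, of which 5.45% were higher and 5.13% lower). ETS1, a factor of lymphoid and endothelial cells that is also made in invasive tumours, was 430 in PC3-L against 185 in PC3-H, and 225 on the LNCaP-AI-labelled array against 42.6 on LNCaP. FLI1, a factor of blood and endothelial cells, was 146 in PC3-L against 42.1 in PC3-H, and 111 on the LNCaP-AI-labelled array against 34.7 on LNCaP. ETV5, of the PEA3 group, was 122 against 55.2 in the PC3 pair and 103 against 29.7 in the LNCaP pair. These 3 were higher in both pairs, the opposite of EHF and SPDEF, although ETV5 came within 2-fold in the PC3 pair with a pseudocount of 16 (0.95).

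The other PEA3 genes split between the pairs. ETV1, known for rearrangements in prostate cancer, was 99.8 in PC3-L against 40.98 in PC3-H, but 122 on the LNCaP-AI-labelled array against 363 on LNCaP. ETV4 was 144 in PC3-L against 313 in PC3-H, but 196 on the LNCaP-AI-labelled array against 40.04 on LNCaP. ELF4 was 2.88-fold higher on the LNCaP-AI-labelled array than on LNCaP, with a log2 difference of −0.87 in the PC3 pair, which went past 2-fold lower with the 5th percentile subtracted (−1.04). The repressor genes ETV6 (2.01-fold) and ERF (2.01-fold) were just past 2-fold higher on the LNCaP-AI-labelled array, and both came within it with a pseudocount of 16 (0.91 and 0.89). ELF5, the epithelial relative that lies beside EHF on chromosome 11, was 28.7 in PC3-L against 29.3 in PC3-H, and 28.3 on the LNCaP-AI-labelled array against 50.4 on LNCaP. Its highest value was thus on LNCaP, as for EHF, but it stayed within 2-fold (−0.81) unless the 5th percentile was subtracted (−2.16). ELF3 had no named probe here and was not analysed.

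**Figure D3:**
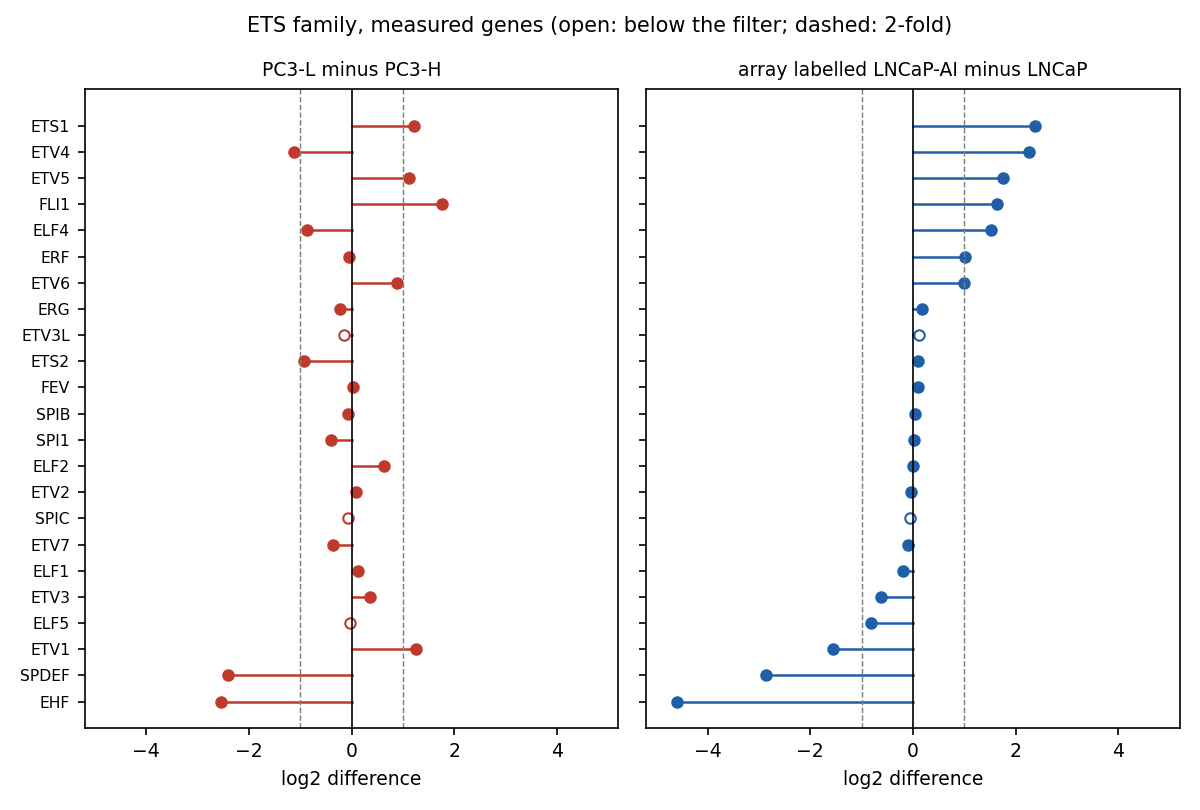
Log2 differences of the 23 measured ETS genes, PC3-L minus PC3-H on the left and the LNCaP-AI-labelled array minus LNCaP on the right, with open points below the filter and dashed lines at 2-fold. EHF and SPDEF lie left of the 2-fold line in both panels; ETS1, FLI1 and ETV5 lie right of it in both.

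Other ERBB family genes were read beside ERBB3. EGFR, the epidermal growth factor receptor, was 336 in PC3-L against 651 in PC3-H (−0.95), and 272 on the LNCaP-AI-labelled array against 356 on LNCaP (−0.38). It was just within 2-fold in the PC3 pair and past it after quantile normalization (−1.07) and with the 5th percentile subtracted (−1.0005). ERBB4 passed the filter in neither pair, with values between 28.4 and 34.4, and ERBB2 had no named probe and was not analysed.

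Among ERBB ligands, 2 of 8 past the filter were higher on PC3-L and 2 lower, where 8.58% of all genes were higher and 3.76% lower. HBEGF, a ligand of EGFR and ERBB4, was 62.3 in PC3-L against 388 in PC3-H, and 42.8 on the LNCaP-AI-labelled array against 42.4 on LNCaP. The EGFR ligand EPGN was 21.5 in PC3-L against 110 in PC3-H, and dim on both LNCaP-labelled arrays. NRG1, a neuregulin that binds ERBB3, was 83.3 in PC3-L against 37.4 in PC3-H, a 2.20-fold difference, opposite in direction to its receptor gene, and came within 2-fold with a pseudocount of 16 (0.90). In the LNCaP pair NRG1 was 44.4 on the LNCaP-AI-labelled array against 33.7 on LNCaP (0.39). EREG, epiregulin, was higher in both pairs, at 166 in PC3-L against 44.9 in PC3-H, and 86.7 on the LNCaP-AI-labelled array against 28.2 on LNCaP; it was the 1 higher of 5 ligands past the filter in the LNCaP pair, where 0 were lower (5.45% and 5.13% of all genes).

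Of 11 measured adaptors and regulators of the receptors, 4 were past 2-fold higher and 1 lower on PC3-L, and 1 was higher and 2 were lower on the LNCaP-AI-labelled array. Over all genes these shares were 8.58% and 3.76% in the PC3 pair and 5.45% and 5.13% in the LNCaP pair, so the 1 of 11 counts lie near them. LRIG1, a membrane protein that restrains ERBB receptors, was lower in both pairs like ERBB3, at 41.8 in PC3-L against 115 in PC3-H, and 59.0 on the LNCaP-AI-labelled array against 160 on LNCaP. ERRFI1, a cytoplasmic inhibitor of EGFR, was higher in both, at 763 in PC3-L against 343 in PC3-H, and 669 on the LNCaP-AI-labelled array against 158 on LNCaP. RNF41, a ubiquitin ligase that acts on ERBB3, was 137 in PC3-L against 153 in PC3-H, and 123 on the LNCaP-AI-labelled array against 281 on LNCaP. The adaptor gene SHC1 (2.59-fold) and ERBIN (2.94-fold), an ERBB2-binding scaffold, were higher on PC3-L and within 2-fold in the LNCaP pair.

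**Figure D4:**
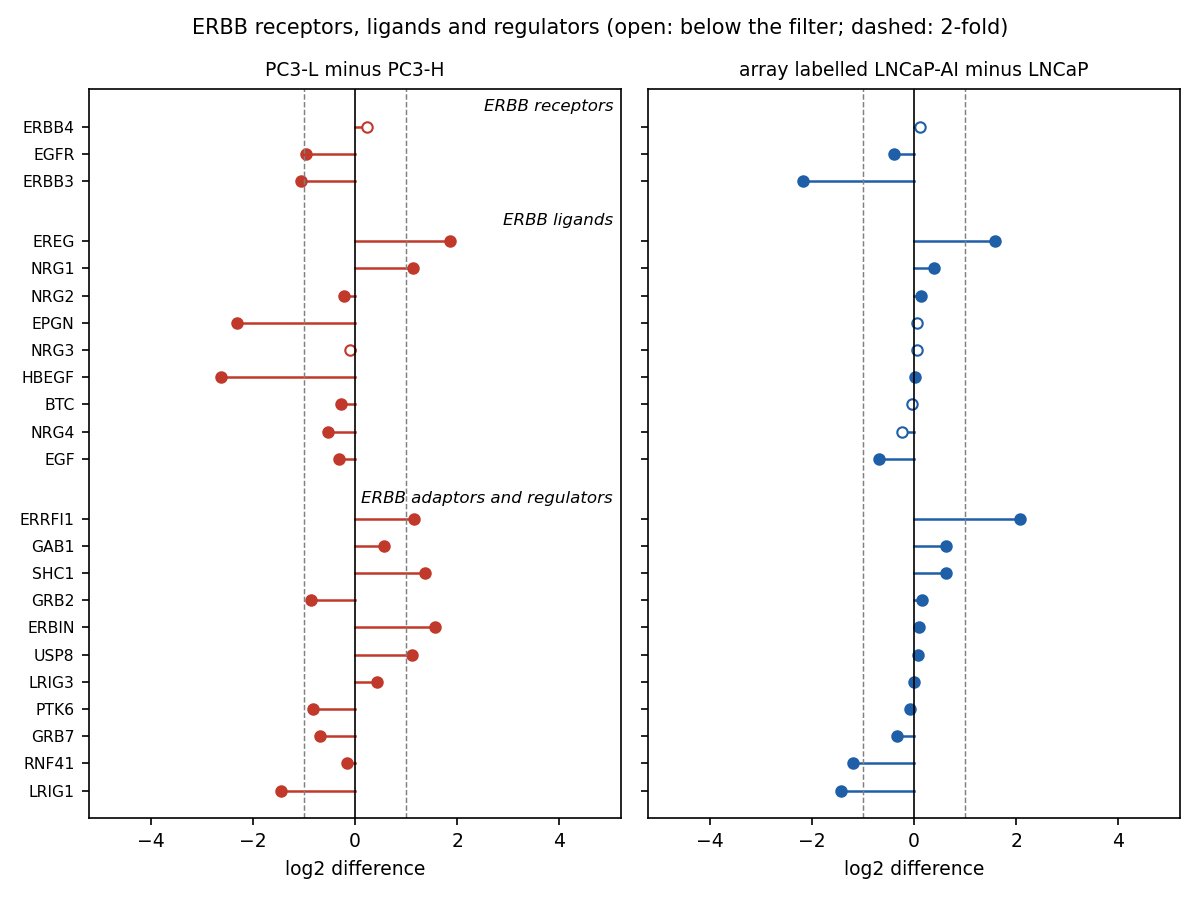
Log2 differences of measured ERBB receptors, ligands and regulators, PC3-L minus PC3-H on the left and the LNCaP-AI-labelled array minus LNCaP on the right, with open points below the filter and dashed lines at 2-fold. ERBB3 and LRIG1 are past 2-fold lower in both panels, EREG and ERRFI1 past 2-fold higher in both, and HBEGF and EPGN are past 2-fold lower in the left panel and near 0 in the right one.

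Other epithelial transcription factors were lower on PC3-L in 5 of 16 past the filter and higher in 0 (median −0.53), and lower on the LNCaP-AI-labelled array in 4 of 15 and higher in 0 (median −0.18). Over all genes 3.76% were lower and 8.58% higher in the PC3 pair (median −0.02), and 5.13% lower and 5.45% higher in the LNCaP pair (median 0.00). GRHL2, a grainyhead factor of epithelial junctions, was 29.3 in PC3-L against 129 in PC3-H, and 32.8 on the LNCaP-AI-labelled array against 287 on LNCaP. Both low values of GRHL2 lay under the 40th percentile of their arrays, so it entered the counts through its high arrays alone. FOXA1, a pioneer factor of luminal cells, was 35.4 in PC3-L against 160 in PC3-H, and 38.9 on the LNCaP-AI-labelled array against 499.9 on LNCaP. HOXB13, a homeobox factor of prostate, was 45.1 in PC3-L against 110 in PC3-H, and 39.5 on the LNCaP-AI-labelled array against 407 on LNCaP. These 3 followed the order of the 4 arrays seen for EHF at their upper end, with LNCaP first and PC3-H second. KLF5 (3.22-fold) and TFCP2L1 (2.19-fold) were past 2-fold lower on PC3-L and within 2-fold in the LNCaP pair; TFCP2L1 came within 2-fold at a pseudocount of 16 (−0.83). GATA2 (3.81-fold) was past 2-fold lower on the LNCaP-AI-labelled array and within 2-fold in the PC3 pair.

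Transcription factors known from epithelial-mesenchymal transition, listed here as repressors, ran the other way in part. In each pair 3 of 9 were past 2-fold higher and 0 lower, with medians of 0.45 and 0.71, where 8.58% and 5.45% of all genes were higher. SNAI2 was 634 in PC3-L against 93.5 in PC3-H, and 468 on the LNCaP-AI-labelled array against 57.6 on LNCaP. ZEB1 was 225 in PC3-L against 38.2 in PC3-H, and 157 on the LNCaP-AI-labelled array against 36.5 on LNCaP. TCF4, an E-box factor also called E2-2, was 435 in PC3-L against 61.0 in PC3-H, and 184 on the LNCaP-AI-labelled array against 53.6 on LNCaP. The arrays high for these genes were those low for EHF, SPDEF and ERBB3.

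**Figure D5:**
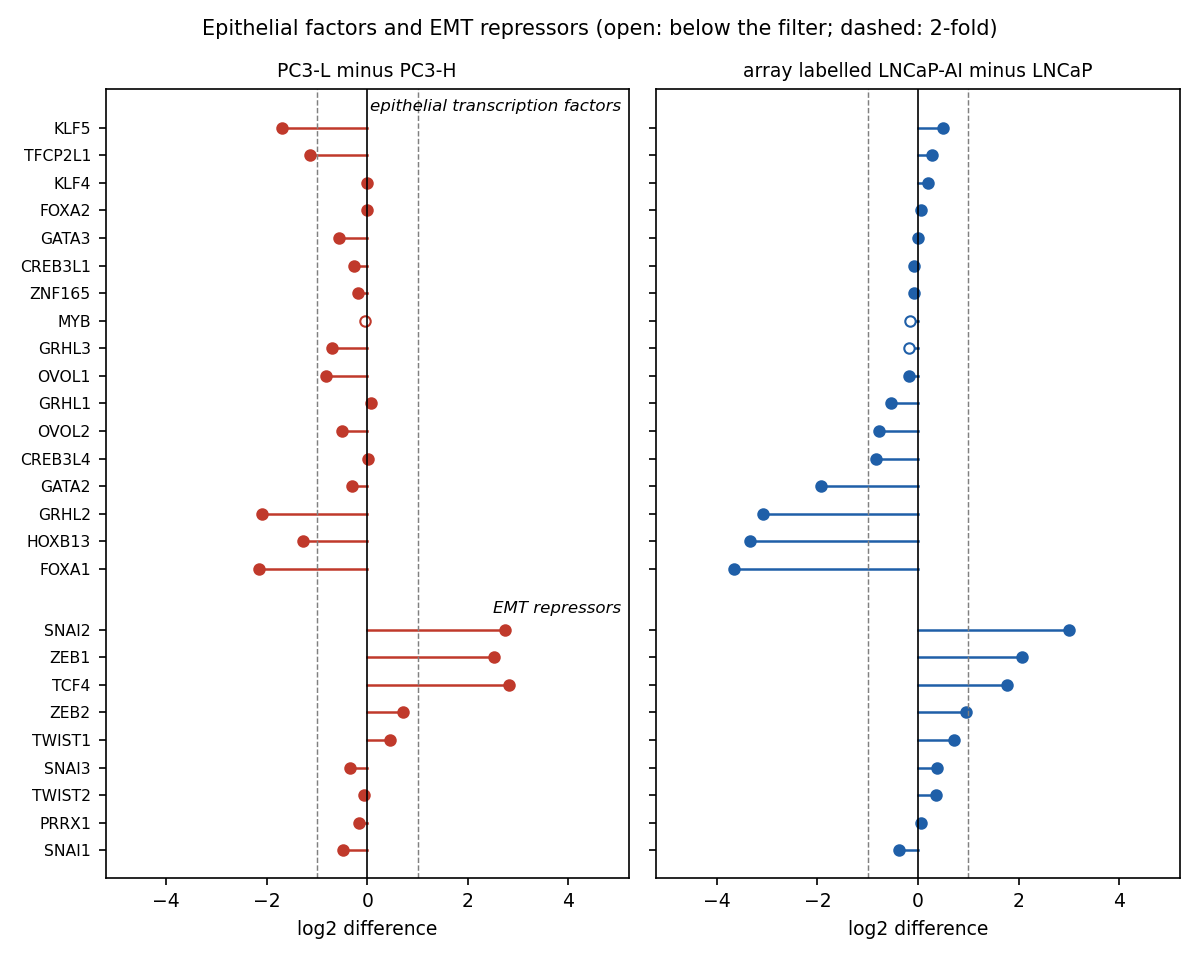
Log2 differences of measured epithelial transcription factors and EMT (epithelial-mesenchymal transition) repressors, PC3-L minus PC3-H on the left and the LNCaP-AI-labelled array minus LNCaP on the right, with open points below the filter and dashed lines at 2-fold. GRHL2, FOXA1 and HOXB13 lie past 2-fold lower and SNAI2, ZEB1 and TCF4 past 2-fold higher in both panels.

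Epithelial junction and surface genes were past 2-fold lower on PC3-L in 13 of 26 and on the LNCaP-AI-labelled array in 13 of 25, and higher in 0 each time (medians −1.11 and −1.24), where 3.76% and 5.13% of all genes were lower. EPCAM, an epithelial adhesion molecule, was 30.1 in PC3-L against 667 in PC3-H, and 33.3 on the LNCaP-AI-labelled array against 314 on LNCaP. Its low values also lay under the 40th percentile of their arrays, so it entered the counts through its high arrays alone. The tight junction gene CLDN7 was 40.3 in PC3-L against 355 in PC3-H, and 41.6 on the LNCaP-AI-labelled array against 486 on LNCaP. ST14 (9.66-fold), a membrane protease, and KRT19 (9.31-fold), a keratin, were among the 3 largest in the PC3 pair, though KRT19 was 45.9 on the LNCaP-AI-labelled array against 44.2 on LNCaP. MARVELD2, the tricellular junction gene tricellulin, was 24.8 on the LNCaP-AI-labelled array against 257 on LNCaP. Of this list, 13 genes on PC3-L and 12 on the LNCaP-AI-labelled array stayed within 2-fold. The keratin gene KRT18 was 1029 in PC3-L against 1436 in PC3-H, and 786 on the LNCaP-AI-labelled array against 732 on LNCaP. KRT8 had 107 against 88.0, and 94.8 against 123, for the same arrays. OCLN (log2 difference 0.40) and DSG2 (0.73) were not lower on PC3-L, but were past 2-fold lower on the LNCaP-AI-labelled array (−1.95 and −1.24).

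Likeness was measured as the Euclidean distance between log2 profiles over the 4 arrays, each centred on its own mean, among 10795 genes. Nearest to EHF were the desmosomal gene DSP (distance 0.69), FOXA1 (0.76), PRAC1 (0.82), a nuclear protein gene of prostate and hindgut, the adhesion receptor gene ADGRG6 (0.91) and the cytolinker gene EPPK1 (0.96). DSP was 37.2 in PC3-L against 244 in PC3-H, and 33.3 on the LNCaP-AI-labelled array against 583 on LNCaP. SPDEF was closest to GRHL2 (0.27), followed by the antisense RNA ZNF667-AS1 (0.31), the Wnt receptor gene FZD6 (0.34), SEL1L3 (0.52) and JUP (0.52), which encodes plakoglobin. FZD6 was 31.6 in PC3-L against 197 in PC3-H, and 35.6 on the LNCaP-AI-labelled array against 286 on LNCaP. ERBB3 had MTARC1 (0.19), PTER (0.20), the kinase gene MKNK2 (0.27), MPV17L (0.28) and the glutathione transferase MGST2 (0.30) as its nearest. MTARC1, a mitochondrial reductase, was 31.4 in PC3-L against 75.4 in PC3-H, and 36.4 on the LNCaP-AI-labelled array against 148 on LNCaP. DSP, GRHL2, FZD6 and MTARC1 each had 1 or both low values under the 40th percentile of the array. Their distances therefore depend on the background level. No gene stood on 2 of these lists. SPDEF was the 12th nearest gene to EHF (1.31) and ERBB3 the 44th (2.06). Seen from SPDEF, EHF was in place 51 and ERBB3 in place 35. Seen from ERBB3, whose differences are smaller, SPDEF was in place 289 and EHF in place 7705 of 10794 genes.

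Cells of other types that express ERBB3 include Schwann cells and melanocytes, and their markers were read on the same arrays. Of 8 Schwann and perineurial genes 4 were measured, with summed intensities of 229 in PC3-L against 225 in PC3-H, and 190 on the LNCaP-AI-labelled array against 165 on LNCaP. SOX10, the defining factor of both cell types, was 58.3 in PC3-L against 60.4 in PC3-H, and 60.8 on the LNCaP-AI-labelled array against 54.2 on LNCaP. The 4 melanocyte genes summed to 101 in PC3-L against 117 in PC3-H, and 110 on the LNCaP-AI-labelled array against 119 on LNCaP; MLANA and TYR reached the filter on no array. Of fibroblast markers 2 of 5 were measured and 1 passed the filter in each pair. Of endothelial markers 2 of 4 were measured and 2 passed. In both lists 0 genes were past 2-fold in either pair. Over all genes 8.58% were higher and 3.76% lower in the PC3 pair, and 10.6% were past 2-fold in the LNCaP pair. Counts over 1 or 2 genes cannot be told apart from these shares, for the leukocyte markers as well. Leukocyte markers (2 of 4 measured) had 1 past 2-fold in each pair, the lysosomal gene CD68, at 630 in PC3-L against 290 in PC3-H, and 553 on the LNCaP-AI-labelled array against 102 on LNCaP. The part of other cell types in the members' differences was not tested.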

How the data were processed

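Total RNA of 4 cultures had been isolated with ISOGEN II reagent, fragmented and biotinylated with an Affymetrix WT terminal labelling kit, per the labels' protocols. The authors deposited 1 linear intensity value per probe and array, from 17.6 to 11188. The series' design text names GeneSpring GX 12.6; how the authors summarised probes, corrected background and normalised arrays is not stated in the labels. Groups came from the sample titles.

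Probes were named through the platform annotation: 14952 of 37934 had 1 gene symbol. Where a gene had several probes, the brightest by mean was used. Differences were taken as log2(intensity + 1), between arrays as deposited, keeping genes at or above the 40th percentile on 1 or both arrays compared, with a limit of 2-fold. No p-value was computed. The members and the 15 gene lists were chosen with earlier results of these data known.

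Named genes were the members, ELF5, EGFR and ERBB4, every ETS, ERBB receptor, ERBB ligand, epithelial factor and repressor gene past 2-fold in either pair, up to 3 genes from each other list and pair, the 5 nearest profiles per member (leaving out small RNAs, unnamed open reading frames and genes on Y), and line markers. KRT8, KRT18, OCLN and DSG2 were also named, as junction and surface genes not past 2-fold lower in both pairs. They are not among the 58 other named genes whose settings were compared. Motif matches and neighbouring genes were read from RefSeq tables (GRCh38.p14). The counting and distance steps were tested on simulated data. Python 3.11.15, numpy and pandas 2.3.3 were used.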

Additional observations from a re-analysis of the deposited data

Results flagged for a closer look

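ETV1 and ETV4 went past 2-fold in opposite directions in the 2 pairs. ETV1 had a log2 difference of 1.26 for PC3-L minus PC3-H and of −1.56 for the LNCaP-AI-labelled array minus LNCaP. ETV4 had −1.11 for PC3-L minus PC3-H and 2.26 for the LNCaP-AI-labelled array minus LNCaP. With 1 array per culture the difference between the pairs was not tested. The LNCaP side rests on the array whose line markers, apart from CXCL8, lie near those of PC3-L, against its label. Over all genes, 0.139% were lower on PC3-L and higher on the LNCaP-AI-labelled array as ETV4 was, and 0.335% the other way round as ETV1 was.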

How the results depend on the processing

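The members' differences in the 2 pairs kept their direction under every alternative scaling and pseudocount run, and were past 2-fold in all of them except ERBB3 in the PC3 pair with a pseudocount of 16 (−0.84). Naming the PC3 arrays by the free-text description turned all signs by construction, to 2.55 for EHF, 2.41 for SPDEF and 1.06 for ERBB3. Subtracting the 5th percentile of each array, a constant background, enlarged the differences to −3.91 (EHF), −3.02 (SPDEF) and −1.84 (ERBB3) in the PC3 pair, and to −5.91 (EHF) and −3.14 (ERBB3) in the LNCaP pair, so the folds given depend on the background level. The same subtraction moved the count of repressors higher on the LNCaP-AI-labelled array to 6 of 9. At a limit of 4-fold, 198 genes were called in the PC3 pair (102 higher, 96 lower) and 285 in the LNCaP pair (165 higher, 120 lower). Removing a trend with gene length, an alternative chosen after seeing the data, gave 804 higher and 427 lower on PC3-L, against 955 and 419 without it. Of 116 differences of 58 other named genes, none past 2-fold changed sign, but only 41 kept their side of 2-fold and moved by under 1.5 times in every setting; subtracting the 5th percentile moved 72, a pseudocount of 16 moved 10, quantile normalization 1 and median centring 0. No paired analysis was possible because each group had 1 array.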

Other observations

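Genes with a known place in the secretory programme of SPDEF were read as a group. Of 13 past the filter apart from SPDEF itself, 0 were past 2-fold in the PC3 pair (median −0.26) and 2 were lower on the LNCaP-AI-labelled array (median −0.29). Over all genes 3.76% and 5.13% were lower. The count of 0 in the PC3 pair is near its share, while 2 of 13 lies above its share but rests on few genes. The 2 lower genes were KLK3 and ZG16B, a secreted lectin. KLK3, also 1 of the LNCaP line markers summed above, was 61.2 on the LNCaP-AI-labelled array against 1781 on LNCaP. ZG16B was 44.8 on the LNCaP-AI-labelled array against 388 on LNCaP. Both genes were at PC3 levels on the LNCaP-AI-labelled array, with ZG16B at 36.4 on PC3-L and 40.2 on PC3-H. The secretory gene AGR2 was 29.2 in PC3-L against 58.2 in PC3-H, and 28.5 on the LNCaP-AI-labelled array against 51.4 on LNCaP, just within 2-fold in both pairs (−0.97 and −0.83).

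Chromosomal neighbours of the members, the 5 nearest measured protein-coding genes on each side, were looked at after the members' values were known. In the PC3 pair 0 of 8 neighbours of EHF, 0 of 9 of SPDEF and 0 of 10 of ERBB3 past the filter were past 2-fold, where 8.58% of all genes were higher and 3.76% lower. In the LNCaP pair, none of the 9 neighbours of EHF past the filter was lower and 2 were higher, where 10.6% of all genes were past 2-fold in either direction. The 2 higher neighbours were CD44, with a log2 difference of 3.58, and FJX1, with 2.64. CD44, the hyaluronan receptor gene, is also 1 of the PC3 line markers summed above. Counts of 0 or 1 neighbours are near the shares over all genes, while 2 of 9 lies above its share but rests on few genes. Beside SPDEF on chromosome 6, HMGA1, a chromatin protein gene, was higher (3.03) on the LNCaP-AI-labelled array and 0 of 9 neighbours were lower. Among 10 neighbours of ERBB3 on chromosome 12, the 1 past 2-fold was RNF41, the ubiquitin ligase gene named above for acting on ERBB3, which was lower on the LNCaP-AI-labelled array (−1.19).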
